A study of Mus musculus with 6 samples.

Results

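The genes described here are 43 markers of cell types that an epithelial sort is meant to leave behind: 13 of mesenchyme, 17 of endothelium, 9 of leukocytes and 4 of mesothelium. They were chosen by name, and all 43 were matched by Entrez identifier among the 27179 genes of the count table. The libraries are messenger RNA of cells carrying the epithelial surface protein EpCAM, sorted from mouse lungs at E16.5, an embryonic day at which the airway tree is largely laid down. Control samples were Shh-Cre;Grhl2f/+ (n = 3, replicates 1, 3 and 7) and knockout samples, named Grhl2_cKO, were Shh-Cre;Grhl2f/- (n = 3, replicates 1, 5 and 10). The Shh-Cre allele shared by all samples is a recombinase expressed from the Shh locus, which in the lung is active in epithelium, so control epithelium in which Cre acted keeps 1 Grhl2 allele. Most other lung cell types lie outside that Cre domain, and they differ between the genotypes in the null allele, read from the minus sign of the label. Control replicate 7 and Grhl2_cKO replicate 1 were female, and the other 4 samples were male. The labels do not say whether a sample is 1 embryo, so the p-values speak only of the spread among these samples, which may be technical.

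The fetal lung is an epithelial tree inside mesenchyme, which holds fibroblasts, smooth muscle and pericytes, with a dense network of endothelial vessels, resident macrophages and an outer sheet of mesothelium. A dissociated lung is a mixture of these cells, and a sort on EpCAM enriches the epithelium. In bulk RNA fewer cells of a type and less RNA per cell cannot be told apart, and without an unsorted sample the values below are levels of RNA and not shares of cells. Whether carried-over cells or the sorted epithelium itself supplied a marker's transcripts was not tested.

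Total counts were 13472216 to 17228762 per library. Levels are given as CPM, counts relative to the TMM-scaled library size, and levels of different genes are compared as RPKM, which is CPM per kilobase of the gene length in the table. The targeted gene Grhl2 stood at 149.0, 147.8 and 145.9 CPM across controls (1, 3, 7) and at 105.2, 109.1 and 115.2 CPM across knockouts (1, 5, 10) (log2 fold change -0.43 ± 0.05 SE, adjusted p = 0.0020 by edgeR). The deleted exons are not named in the labels, and the counts are sums over the whole gene. Epcam, whose protein was the gate, stood at 558.3, 543.1 and 501.0 CPM in controls and 334.9, 345.9 and 402.4 CPM in Grhl2_cKO (log2 fold change -0.56 ± 0.08 SE, adjusted p = 0.0053 by edgeR). Whether sorting recovered a like mix of cells in controls and knockouts was not tested. Grhl2_cKO replicate 1 stood apart in 10 heart muscle genes, which summed to 255.1 CPM there and to 32.1 to 58.1 CPM in the other 5 libraries.

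Mesenchymal and endothelial transcripts were present in each library, mesothelial transcripts were lower, and leukocyte transcripts were the lowest. The 43 markers together took 0.0959% to 0.137% of the counts of a library. The 13 mesenchymal markers summed to 960.4, 836.6 and 655.7 CPM across controls (1, 3, 7) and to 926.8, 601.7 and 740.9 CPM across knockouts (1, 5, 10). The groups overlapped, and the lowest and highest libraries differed 1.596-fold. The 17 endothelial markers summed to 333.1, 317.6 and 246.0 CPM in controls and 307.3, 327.0 and 315.9 CPM in Grhl2_cKO. Control replicate 7 was the low library, and the other 5 lay within 307.3 to 333.1 CPM.

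The 9 leukocyte markers summed to 8.36, 11.5 and 7.22 CPM in controls and 12.7, 8.85 and 6.98 CPM in Grhl2_cKO. These sums rest on 112 to 212 counts a library, and the 95% Poisson interval of Grhl2_cKO replicate 10, the lowest, was 5.78 to 8.36 CPM, for counting error only. Cd68 alone gave 32.5% to 66.1% of the counts of a sum. Without it the 8 others summed to 4.18, 7.60 and 2.45 CPM in controls and 8.59, 5.07 and 3.19 CPM in Grhl2_cKO, with overlap and 3.51-fold between the lowest and highest library, against 1.82-fold with it. The 4 mesothelial markers summed to 78.5, 39.7 and 45.8 CPM in controls and 60.7, 20.9 and 19.5 CPM in Grhl2_cKO. This class had the widest spread of the 4, 4.02-fold between its lowest and highest library. For scale, 13 epithelial genes, with Sftpc, Nkx2-1 and Cdh1 among them, summed to 19470 to 22590 CPM. Sftpc alone stood at 12584 to 15436 CPM, the larger part of each sum.

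**Figure D1:**
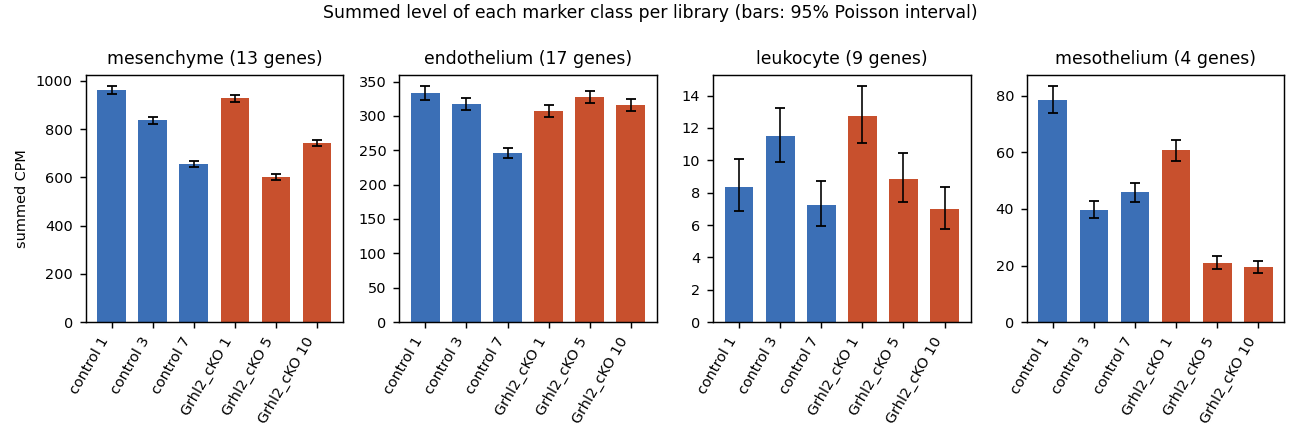
Summed CPM of the members of each marker class (y axis) in the 3 control libraries (blue) and the 3 Grhl2_cKO libraries (red), with exact 95% Poisson intervals that cover counting error only. The genotypes overlap in all 4 classes, control replicate 7 is the lowest endothelial library at 246.0 CPM, and the mesothelial bars run from 19.5 to 78.5 CPM.

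Per unit of gene length, the median mesenchymal marker stood at 8.75 RPKM, the median endothelial marker at 6.99 RPKM, the median mesothelial marker at 4.48 RPKM and the median leukocyte marker at 0.332 RPKM. The median epithelial gene of the list stood at 158.9 RPKM and the median of all genes tested at 10.0 RPKM. Each of these is the median over genes of the median level over 6 libraries. Mesenchymal and endothelial markers lay near the middle of the tested genes in these libraries and below the epithelial list.

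**Figure D2:**
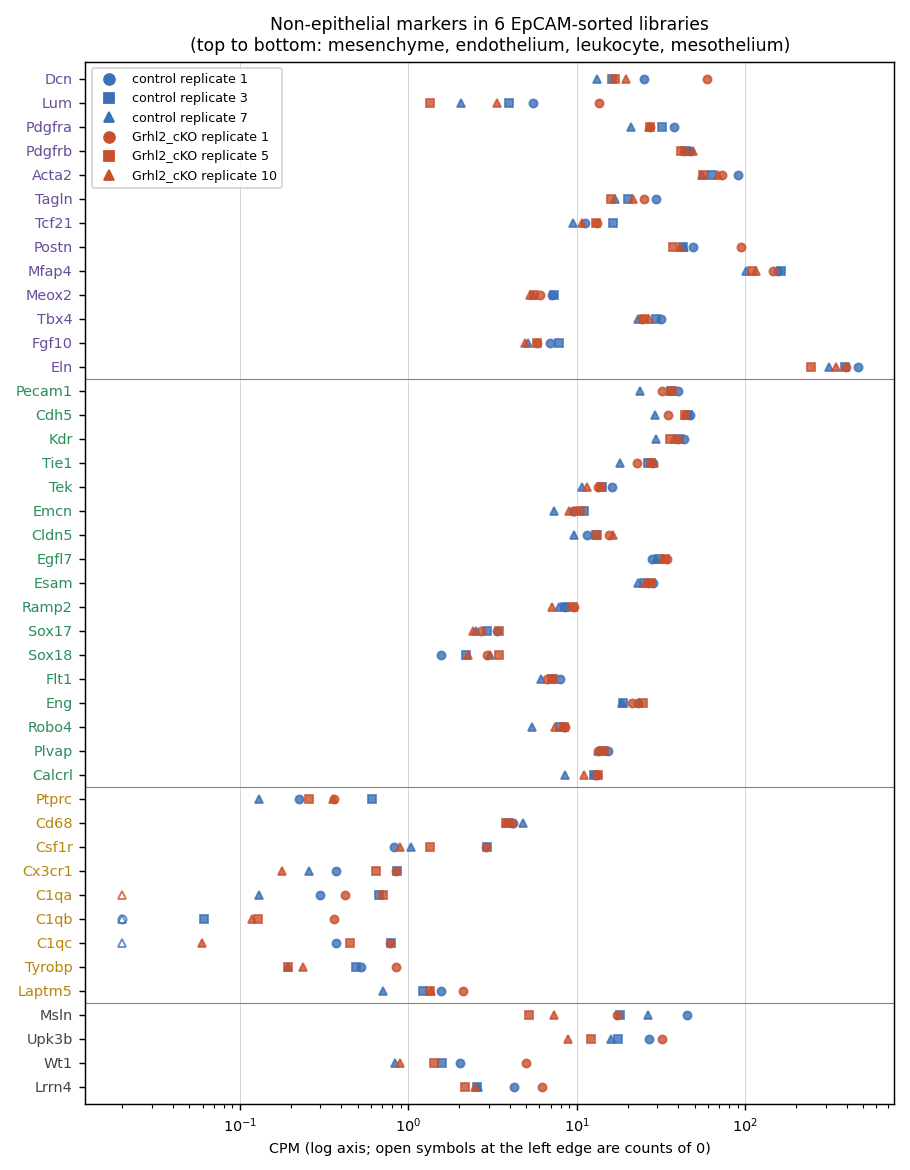
CPM of each of the 43 markers (x axis, log scale) in the 6 libraries, with controls in blue, Grhl2_cKO in red and a symbol shape for each replicate. The points run from Eln at 246.8 to 464.3 CPM down to the complement genes C1qa, C1qb and C1qc, where open symbols at the left edge mark libraries with a count of 0.

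The comparison of the genotypes asked whether RNA of these markers differed between Grhl2_cKO and control. Of the 43 markers, 38 passed the filter on low counts and were tested, and none of these was called in either direction. The edgeR quasi-likelihood test with Benjamini-Hochberg adjustment over all 14842 genes called 0 of the 38, beside 3.59% of all genes tested. DESeq2 and limma-voom also called 0. At an unadjusted p under 0.05 there were 3, Msln lower and Cldn5 and Egfl7 higher in Grhl2_cKO, where 13.3% of all genes tested passed that limit. The same 3 of the 38 markers had no overlap of CPM between the genotypes, against 18.1% of all genes tested. The median log2 fold change of the 38 was 0.03 and that of all genes tested was 0.00.

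How closely the data bound a difference varied by class. The 95% interval of the log2 fold change lay inside 2-fold in either direction for 17 of 17 endothelial markers and 10 of 13 mesenchymal markers. It did so for 1 of 4 tested leukocyte markers and for 0 of 4 mesothelial markers. Over all genes tested, 13230 of 14842 had such an interval. Median log2 fold changes were -0.08 for mesenchyme, 0.07 for endothelium, 0.10 for the 4 tested leukocyte markers and 0.02 for mesothelium. Without control replicate 3 the leukocyte median was 0.66, over the members that passed the filter in that fit. Without Grhl2_cKO replicate 1 the mesothelial median was -0.67.

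**Figure D3:**
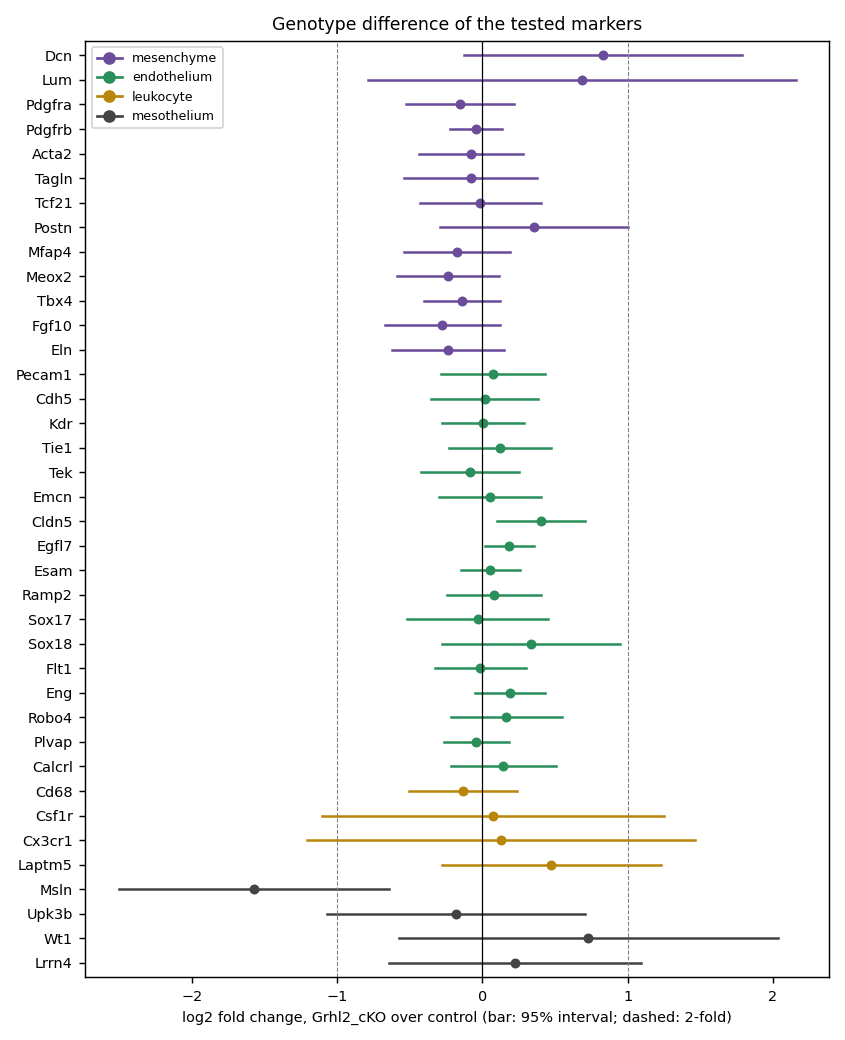
Log2 fold change of Grhl2_cKO over control for the 38 tested markers (points) with 95% intervals (bars), coloured by class, with dashed lines at 2-fold. Endothelial intervals all stay between the dashed lines, and Msln at -1.57 is the marker farthest from 0.

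Among matrix genes of the mesenchyme, Eln, which encodes elastin, was the most abundant marker of the 43. Eln (Entrez 13717, chromosome 5, 134702595 to 134747368, mm10) stood at 464.3, 391.6 and 313.1 CPM across controls (1, 3, 7) and at 397.2, 246.8 and 347.4 CPM across knockouts (1, 5, 10). The groups overlapped, with a log2 fold change of -0.24 ± 0.17 SE at n = 3 a group (adjusted p = 0.710 by edgeR). Mfap4, a microfibril-associated protein gene, stood at 155.6, 162.1 and 100.9 CPM in controls and 145.2, 109.7 and 115.9 CPM in Grhl2_cKO, again with overlap (log2 fold change -0.17 ± 0.16, edgeR adjusted p = 0.805). Per length these were also the highest of the class, at a median of 97.7 RPKM for Eln and 86.3 RPKM for Mfap4.

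The contractile genes varied together between libraries. Acta2, the smooth muscle actin gene, stood at 90.2, 63.8 and 55.3 CPM in controls and 72.9, 56.1 and 68.6 CPM in Grhl2_cKO (log2 fold change -0.08 ± 0.16, edgeR adjusted p = 0.952). Tagln, which encodes the actin-binding protein transgelin, stood at 29.3, 20.01 and 16.96 CPM and at 24.9, 15.8 and 21.7 CPM. The ratio of Tagln to Acta2 counts was 0.282 to 0.341 in the 6 libraries. Control replicate 1 was the highest library for both genes, and without it their log2 fold changes were 0.16 and 0.18, against -0.08 for each with it. It was also the highest for Myh11, the smooth muscle myosin gene, at 60.5 CPM against 24.95 to 42.1 CPM in the others. Part of Tagln lies over Pcsk7, a gene with counts of its own, and the sources used here give no strand setting for the counting, so reads in the shared stretch are uncertain.

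Receptor and regulator genes of lung mesenchyme differed little between genotypes, and none passed. Pdgfrb, the receptor gene of pericytes and smooth muscle, stood at 47.2, 44.0 and 46.8 CPM in controls and 43.5, 41.3 and 48.7 CPM in Grhl2_cKO (log2 fold change -0.05 ± 0.08, edgeR adjusted p = 0.931). Its interval, 0.856-fold to 1.10-fold, was the narrowest of the class. Pdgfra, the receptor gene of fibroblasts and myofibroblast precursors, ran from 21.1 to 37.5 CPM among controls and from 26.9 to 27.1 CPM in Grhl2_cKO. The transcription factor genes Tbx4, Tcf21 and Meox2 had log2 fold changes of -0.14 ± 0.12, -0.01 ± 0.19 and -0.24 ± 0.16. Fgf10, the mesenchymal growth factor gene that drives branching, was at 4.91 to 7.79 CPM with a log2 fold change of -0.27 ± 0.18 (adjusted p = 0.642 by edgeR). Of the 13 mesenchymal markers, 10 had a log2 fold change below 0 and 3 above, and none was called.

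The 3 above 0 were Dcn, Lum and Postn, and each was set apart by Grhl2_cKO replicate 1. They were singled out after their values were seen, except Postn, which is among the 5 most abundant of the class. Dcn, which encodes the matrix proteoglycan decorin (Entrez 13179, chromosome 10, 97479500 to 97518163), stood at 24.9, 16.1 and 13.2 CPM in controls, 59.2 CPM for Grhl2_cKO replicate 1, and 16.9 and 19.5 CPM for the remaining knockouts. Its log2 fold change was 0.83 ± 0.43 (edgeR adjusted p = 0.49) and 0.02 without Grhl2_cKO replicate 1. Lum, the gene of the related proteoglycan lumican, was at 13.6 CPM in that library and at 1.35 to 5.53 CPM in the other 5. Its log2 fold change turned from 0.68 to -0.68 without it. Postn, the gene of the matrix protein periostin, was at 48.8, 42.5 and 43.3 CPM in controls, 94.0 CPM in that library and 37.0 and 41.2 CPM in the other Grhl2_cKO libraries. Its log2 fold change turned from 0.36 to -0.20.

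The high values in Grhl2_cKO replicate 1 did not extend over the class. Against the median of the other 5 libraries, Dcn was 3.49-fold, Lum 4.03-fold and Postn 2.21-fold, while Mfap4 was 1.25-fold, Eln 1.143-fold, Tcf21 1.18-fold, Pdgfra 1.00-fold and Tbx4 0.903-fold. The ratio of Dcn to Mfap4 counts was 0.408 in that library and 0.0995 to 0.168 in the other 5. Over the 37 markers averaging at least 10 counts, 8 exceeded 1.5 times the median of the others in this library (a limit set after values were seen): Dcn, Lum, Postn, Csf1r, Laptm5, Upk3b, Wt1 and Lrrn4. Of all tested genes with that mean, 3.12% did. It was the highest library for 10 of the 37, against 13.4% of those genes. Control replicate 1 was the highest for 13 of the 37, against 20.3% of those genes. In Grhl2_cKO replicate 1 the fibrillar collagen genes Col1a1, Col1a2 and Col3a1 stood 1.92-fold, 1.71-fold and 1.79-fold over the median of the others. The heart muscle genes given above were highest in the same library for 10 of 10. The part of heart muscle carry-over in these values was not tested.

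**Figure D4:**
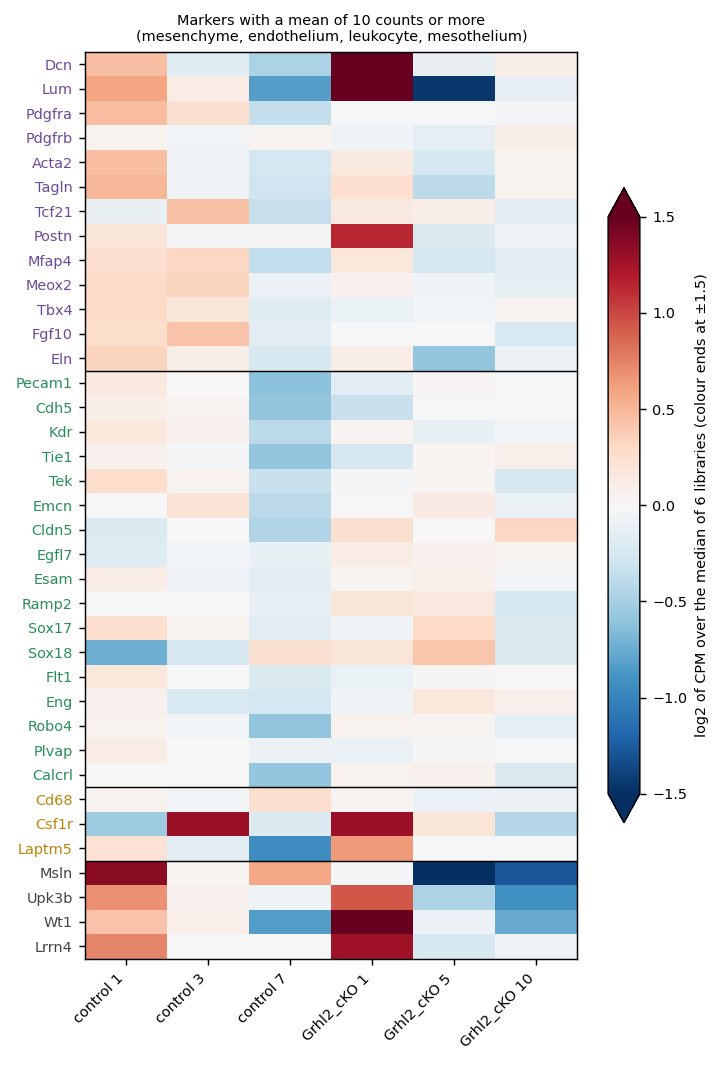
Log2 of each library's CPM over the median of the 6 libraries (colour) for the 37 markers averaging at least 10 counts, by class, with control libraries on the left and Grhl2_cKO on the right. Grhl2_cKO replicate 1 is red for Dcn, Lum, Postn, Wt1 and Lrrn4 and pale for most endothelial genes, and control replicate 7 is blue for most endothelial genes.

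Endothelial markers stood at like levels in both genotypes, with each interval inside 2-fold as given above. Cdh5, which encodes VE-cadherin, the junction protein of vessels (Entrez 12562, chromosome 8, 104101613 to 104144504), stood at 47.2, 45.5 and 29.2 CPM across controls (1, 3, 7) and at 35.0, 44.1 and 44.0 CPM across knockouts (1, 5, 10). Control replicate 7 was the lowest and the groups overlapped (log2 fold change 0.02 ± 0.17, adjusted p = 0.993 by edgeR). Pecam1, the gene of the adhesion protein CD31, stood at 39.8, 36.2 and 23.6 CPM in controls and 32.0, 36.6 and 36.0 CPM in Grhl2_cKO (log2 fold change 0.07 ± 0.16). The ratio of Pecam1 to Cdh5 counts was 0.795 to 0.916 over the 6 libraries. Esam, another endothelial adhesion gene, stood at 28.2, 25.1 and 23.2 CPM in controls and 26.8, 27.4 and 25.3 CPM in Grhl2_cKO (log2 fold change 0.06 ± 0.09).

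Among receptors of vascular growth factors and angiopoietins, control replicate 7 was again the lowest library for Kdr, Flt1, Tek and Tie1. Kdr, the main VEGF receptor gene of vessels, stood at 43.4, 40.5 and 29.5 CPM in controls and 40.1, 35.9 and 37.6 CPM in Grhl2_cKO (log2 fold change 0.01 ± 0.13, edgeR adjusted p = 0.997). Flt1, which encodes another VEGF receptor, was at 6.13 to 7.91 CPM. Tek, the angiopoietin receptor gene, and Tie1, its relative, had log2 fold changes of -0.09 ± 0.15 and 0.12 ± 0.16. Calcrl and Ramp2, which together encode the adrenomedullin receptor, had values of 0.15 ± 0.16 and 0.08 ± 0.14. Eng, a TGF-beta co-receptor gene, had a log2 fold change of 0.19 ± 0.11, and Robo4, a vascular guidance receptor gene, of 0.16 ± 0.17. Eng shares sequence positions with Fpgs and Plvap with Gtpbp3, both expressed here, so these 2 counts carry the same strand limit as Tagln.

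Cldn5 and Egfl7 were the endothelial markers whose groups did not overlap. Cldn5, the claudin gene of vessels (Entrez 12741, chromosome 16, 18776847 to 18778262), stood at 11.4, 13.1 and 9.61 CPM in controls and 15.5, 13.2 and 16.3 CPM in Grhl2_cKO. The highest control and the lowest Grhl2_cKO library differed by little, and the log2 fold change of 0.40 ± 0.14 did not pass (edgeR adjusted p = 0.185, 0.145 to 0.454 over its alternatives). Egfl7, the gene of a protein that vessels secrete, stood at 27.8, 30.8 and 29.5 CPM and at 34.3, 33.3 and 32.7 CPM (log2 fold change 0.19 ± 0.07, edgeR adjusted p = 0.299, 0.248 to 0.585 over its alternatives). Per length Egfl7 was the highest endothelial marker, at a median of 19.5 RPKM. Its span overlaps the microRNA genes Mir126a and Mir126b, and its value here is that of Egfl7.

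The remaining endothelial markers gave no call. The transcription factor genes Sox17 and Sox18 were at 2.43 to 3.47 CPM and 1.57 to 3.47 CPM. Emcn, which encodes the surface sialoprotein endomucin, had a log2 fold change of 0.05 ± 0.16, and Plvap, the gene of the diaphragms of fenestrated vessels, of -0.04 ± 0.10. Over the class, 13 markers had a log2 fold change above 0 and 4 below. Control replicate 7 was the lowest library for 12 of the 17, where 16.2% of tested genes averaging at least 10 counts were lowest in it. Low values in control replicate 7 were not limited to endothelium. Among genes with that mean, it was lowest for 6 of 13 mesenchymal markers, 7 of 12 other mesenchymal genes and 20 of the 37 markers. For 22 further endothelial genes it was the lowest library for 13, and their sum was 144.1 CPM there and 191.9 to 208.8 CPM in the other 5. Without control replicate 7 the log2 fold changes of Cdh5, Kdr and Pecam1 were -0.18, -0.15 and -0.12. The log2 ratio of the summed endothelial members was -0.04 without it, against 0.08 with it.

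Of the 9 leukocyte markers, 5 had too few counts to be tested. Ptprc, which encodes CD45, the surface protein that defines leukocytes (Entrez 19264, chromosome 1, 138062859 to 138175756), had 3, 10 and 2 counts across controls (1, 3, 7) and 6, 4 and 6 counts across knockouts (1, 5, 10). It did not pass the filter and was not tested. Tyrobp, a signalling adaptor gene of myeloid cells, had 7, 8 and 3 counts in controls and 14, 3 and 4 in Grhl2_cKO, and was not tested either. The complement genes C1qa, C1qb and C1qc, products of macrophages, lay below the filter as well. C1qa had 4, 11 and 2 counts in controls and 7, 11 and 0 in Grhl2_cKO, C1qb had 0, 1 and 0 and then 6, 2 and 2, and C1qc had 5, 13 and 0 and then 13, 7 and 1. A count of 0 allows up to 0.224, 0.193 and 0.177 CPM in control replicate 1, control replicate 7 and Grhl2_cKO replicate 10, the libraries with such a count.

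The tested leukocyte markers were Cd68, Csf1r, Laptm5 and Cx3cr1. Cd68, a lysosomal membrane protein gene that macrophages express strongly and other cells weakly (Entrez 12514, chromosome 11, 69664213 to 69666170), stood at 4.18, 3.89 and 4.77 CPM in controls and 4.15, 3.79 and 3.79 CPM in Grhl2_cKO (log2 fold change -0.13 ± 0.17, edgeR adjusted p = 0.885). It was the most abundant of the class and the steadiest, with 1.26-fold between its lowest and highest library. Csf1r, the growth factor receptor gene of macrophages, stood at 0.821, 2.92 and 1.03 CPM in controls and 2.88, 1.35 and 0.887 CPM in Grhl2_cKO. It was high in 1 library of each genotype, control replicate 3 and Grhl2_cKO replicate 1, and its log2 fold change of 0.07 ± 0.53 was 0.87 and -0.55 without the one and the other. Cx3cr1, a chemokine receptor gene, had 5, 14 and 4 counts in controls and 14, 10 and 3 counts in Grhl2_cKO, and was highest in the same pair. Laptm5, a lysosomal gene of blood cells, stood at 1.57, 1.22 and 0.709 CPM in controls and 2.10, 1.35 and 1.36 CPM in Grhl2_cKO (log2 fold change 0.47 ± 0.34, edgeR adjusted p = 0.701). The 95% interval of Cx3cr1, which takes in the spread between libraries, ran from 0.432-fold to 2.75-fold.

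Mesothelial markers gave the largest difference, and it was in Msln. Msln, which encodes the surface protein mesothelin (Entrez 56047, chromosome 17, 25748613 to 25754378), stood at 45.2, 18.0 and 26.4 CPM across controls (1, 3, 7) and at 17.4, 5.20 and 7.28 CPM across knockouts (1, 5, 10). The groups did not overlap, though the highest Grhl2_cKO library lay just below the lowest control. The means were 29.9 ± 13.9 and 9.97 ± 6.54 CPM (SD, n = 3 each), and the log2 fold change of -1.57 ± 0.42 SE, with a 95% interval of -2.50 to -0.64, did not pass (edgeR adjusted p = 0.0788). It was called without Grhl2_cKO replicate 1 (log2 fold change -2.24, edgeR adjusted p = 0.0129) and without the filter on low counts (edgeR adjusted p = 0.0160), and adjusted p ran from 0.0129 to 0.422 over its alternatives.

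The other mesothelial markers gave smaller values of both signs, and none was called. Upk3b, which encodes a uroplakin of the mesothelial surface (Entrez 100647, chromosome 5, 136038496 to 136044993), stood at 27.0, 17.5 and 16.0 CPM in controls and 32.1, 12.1 and 8.87 CPM in Grhl2_cKO, with overlap (log2 fold change -0.18 ± 0.40, edgeR adjusted p = 0.955). Wt1, the transcription factor gene of mesothelium, stood at 2.02, 1.58 and 0.838 CPM and at 4.99, 1.41 and 0.887 CPM. Lrrn4, a leucine-rich repeat gene of mesothelial cells, stood at 4.26, 2.56 and 2.58 CPM and at 6.19, 2.18 and 2.49 CPM. Grhl2_cKO replicate 1 was the highest library for these 3 genes, but lay below all controls for Msln. Without it the log2 fold changes of Upk3b, Wt1 and Lrrn4 were -0.94, -0.36 and -0.41, against -0.18, 0.73 and 0.23 with it. Lrrn4 shares positions with Crls1, with the same strand limit as above.

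Within each library, the counts of Msln were set against those of Upk3b, a comparison added after values were seen. The ratio was 1.68, 1.03 and 1.65 across controls (1, 3, 7) and 0.543, 0.431 and 0.820 across knockouts (1, 5, 10). Against the sum of Upk3b, Wt1 and Lrrn4 it was 0.831 to 1.36 in controls and 0.332 to 0.594 in Grhl2_cKO. Both ratios were lower in each Grhl2_cKO library than in any control, Grhl2_cKO replicate 1 included. Msln alone was already without overlap, and Grhl2_cKO replicate 1 was the highest library for Upk3b, Wt1 and Lrrn4, so the ratios are not separate evidence. The summed class stood at 0.616 of control, a log2 ratio of -0.70, and at -0.06 with Msln left out of the sum. Leaving out Grhl2_cKO replicate 1 moved the log2 ratio of the whole class to -1.44. It was -0.34 without control replicate 1, -0.45 without Grhl2_cKO replicate 5 and -0.42 without Grhl2_cKO replicate 10. Which cells the Msln transcripts came from was not tested.

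**Figure D5:**
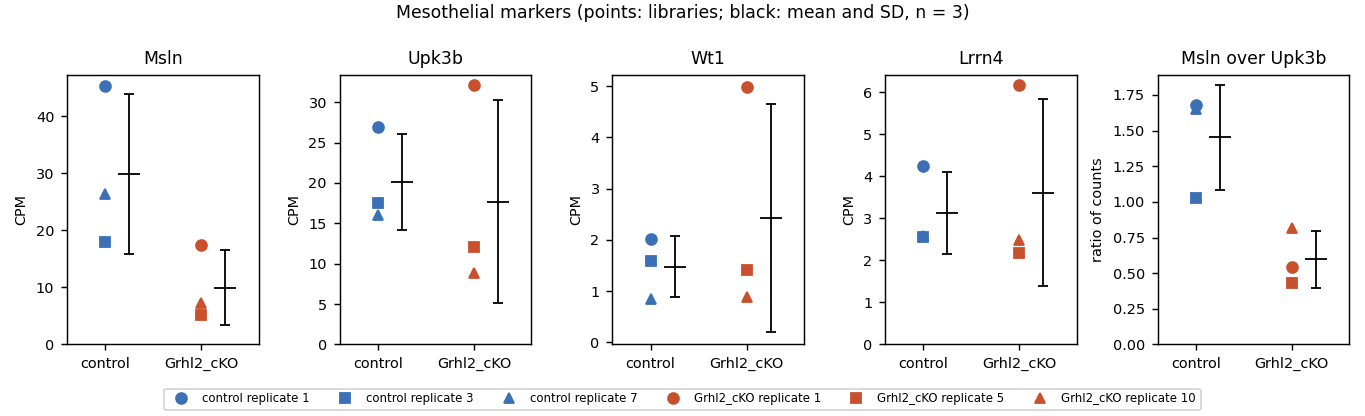
CPM of the 4 mesothelial markers and the ratio of Msln to Upk3b counts (y axes) in each library by genotype, with the mean and SD of 3 libraries in black. Grhl2_cKO replicate 1 is the highest point for Upk3b, Wt1 and Lrrn4 and lies below all controls for Msln, and the ratio does not overlap between genotypes.

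Further markers of the same cell types, from lists of standard markers, gave few calls. Of 13 other mesenchymal genes 12 were tested and none was called by edgeR, and the same held for 22 of 22 other endothelial genes and 6 of 7 other mesothelial genes. At an unadjusted p under 0.05 these 3 lists held 2, 1 and 0 genes, with the 13.3% of all genes beside them. Median log2 fold changes were 0.04, 0.05 and -0.08. Col3a1 was the most abundant of the other mesenchymal genes, with a log2 fold change of 0.00 ± 0.26, followed by Col1a1. Cd93 and Aplnr, both vascular receptor genes, were the most abundant of the other endothelial genes, and Cd93 had a log2 fold change of 0.11 ± 0.14. Of the other mesothelial genes, Aldh1a2 and Gpm6a were the most abundant. Aldh1a2, an enzyme gene of retinoic acid synthesis that mesothelium expresses, stood at 18.8, 10.4 and 10.51 CPM in controls and 18.4, 9.56 and 10.3 CPM in Grhl2_cKO. It was highest in the same libraries, control replicate 1 and Grhl2_cKO replicate 1, as Upk3b and Lrrn4.

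In 9 smooth muscle and pericyte genes, Cspg4, the NG2 proteoglycan gene of pericytes, rose from 79.1, 68.3 and 73.0 CPM in controls to 92.6, 94.8 and 111.2 CPM in Grhl2_cKO (log2 fold change 0.44 ± 0.08, edgeR adjusted p = 0.0186, 0.000213 to 0.0847 over its alternatives, called in 13 of 16 fits). The pericyte genes Pdgfrb, at -0.05 ± 0.08 as given above, and Abcc9 and Kcnj8 of the same list were not called. Notch3, a receptor gene of vascular smooth muscle and pericytes and the most abundant of the list, did not pass (log2 fold change -0.31 ± 0.07, edgeR adjusted p = 0.0518, 0.0181 to 0.183 over its alternatives, called in 5 of 16 fits). The cell source of the Cspg4 and Notch3 transcripts was not tested. Of 23 other leukocyte genes 7 were tested, and Ncf1, a subunit gene of the phagocyte oxidase, fell from 4.85, 3.41 and 3.87 CPM to 1.98, 1.54 and 1.12 CPM (log2 fold change -1.37 ± 0.25, edgeR adjusted p = 0.0169, 0.00184 to 0.0674 over its alternatives, called in 14 of 16 fits). At an unadjusted p under 0.05 that list held 3 of the 7, Ncf1, Cd14 and Rac2, beside 13.3% of all genes tested. All 3 were lower in Grhl2_cKO without overlap of the groups, beside 18.1% of all genes tested without overlap in either direction. The other 4 of the 7 had log2 fold changes above 0. Called were thus 1 of 9 tested smooth muscle and pericyte genes and 1 of 7 tested other leukocyte genes, beside 3.59% of all genes tested. Cd14 at -0.49 ± 0.18 and Rac2 at -1.03 ± 0.35 were not called (edgeR adjusted p = 0.222 and 0.190). The most abundant of that list were Cd14 and Mpeg1, genes that macrophages express, at 3.98 to 7.77 CPM and 4.45 to 6.85 CPM. From which cells the transcripts of Cd14, Mpeg1, Ncf1 and Rac2 came was not tested. The T cell gene Cd3e and the granulocyte genes Mpo and Elane had 0 counts or 1 count in each library, S100a8, another granulocyte gene, had 0 to 4, and its partner S100a9 had 0, 0 and 0 counts in controls and 4, 3 and 3 in Grhl2_cKO. None of these 5 was tested.

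Blood and cartilage genes were measured beside these. The 10 matched erythroid genes summed to 20.5 to 58.7 CPM, led by the globin genes Hba-a1 and Hba-a2, and 4 platelet genes to 4.88 to 7.40 CPM. There was no call by edgeR among the 7 tested. At an unadjusted p under 0.05 there was 1 gene, Pf4 of platelets, lower in Grhl2_cKO, beside 13.3% of all genes tested. Of 5 cartilage genes, Col2a1 rose from 193.2, 192.2 and 241.0 CPM to 342.9, 418.3 and 493.9 CPM (edgeR adjusted p = 0.0025) and Cnmd was also called higher (log2 fold change 0.71 ± 0.15, edgeR adjusted p = 0.0250, called in 13 of 16 fits). Of the other 3, Col9a1 had a log2 fold change of 0.09 ± 0.12, Acan had 9, 6 and 3 counts in controls and 31, 4 and 37 in Grhl2_cKO (log2 fold change 1.84 ± 0.69, edgeR adjusted p = 0.244), and Matn1 had at most 6 counts in a library. Among 8 nerve and glia genes Tubb3 and Elavl3 were called higher (log2 fold changes 2.79 ± 0.61 and 1.62 ± 0.30, edgeR adjusted p = 0.0337 and 0.0170), in 10 of 15 and 12 of 16 fits that tested them. Called were thus 2 of 4 tested cartilage genes and 2 of 7 tested nerve and glia genes, beside 3.59% of all genes tested. These lists are not markers of the 4 classes, and no value of the 43 markers rests on them.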

How the data were processed

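Messenger RNA was measured in 6 libraries of EpCAM-sorted fetal lung cells, grouped by genotype from the sample labels. The deposited table holds whole-number counts per gene with a gene length in bases, both made by the authors. Per the submitters' processing notes the tools were bcl2fastq 2.17.1.14, featureCounts, edgeR 3.16.5 and limma 3.30.12, with build mm10, while the sources used here give no aligner, strand setting or rule for reads with several matches. Entrez identifiers were matched to a RefSeq table of the mm10 assembly for 25275 of 27179 genes (92.99%), with coordinates from that table.

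Genes with too few counts were dropped (filterByExpr, minimum count 10, minimum total 15), which left 14842. Scaling was TMM (factors 0.981 to 1.009), and the test was edgeR 4.0.16's quasi-likelihood test with genotype alone, in R 4.3.3, at an adjusted p under 0.05 (Benjamini-Hochberg). Intervals of fold changes are 95% intervals from the same fit. Poisson intervals at 95%, and the 3 counts that a count of 0 allows, cover counting error only. The script was tested on simulated data. Total counts were 13472216 to 17228762 per library. Tried in place of these were total-count, RLE and upper-quartile scaling, no filter, a filter at 1 CPM in 3 libraries, DESeq2 1.42.0, limma-voom (limma 3.58.1), a robust fit, sex as a covariate, and each library left out. The class sums were also taken without their most abundant member and relative to the epithelial list.

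The 43 members, the 11 further lists (126 genes, of which 2 were not matched) and the tests were chosen with earlier results of these data known. All members are named. Values in each library are given for the 5 most abundant of each class, for members at 0 in a library and for others singled out in the text. Genes of further lists are named where called or most abundant, and others where singled out in the text. Not every gene of these lists at an unadjusted p under 0.05 is named.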

Additional observations from a re-analysis of the deposited data

How the results depend on the processing

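The counts of called genes moved most with the libraries used. Over all genes, 533 were called, 449 to 669 under the other alternatives, and 246 to 501 with 1 library left out: 293 without control replicate 3, 325 without control replicate 7, 249 without Grhl2_cKO replicate 5 and 246 without Grhl2_cKO replicate 10. Of the markers, 0 were called, and 1, Msln, was called without the filter and 0 to 1 with a library left out, the 1 being without Grhl2_cKO replicate 1. The median leukocyte log2 fold change was -0.18 to 0.66 with a library left out. The cause was not tested.

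Of single markers, Tcf21 was at 9.22e-05 under upper-quartile scaling and 0.0076 with limma-voom, against -0.01. All other reversals came from leaving out a library, and no value in them passed the test. For mesenchyme the log2 fold changes then ran from -0.68 to 1.15 for Lum, -0.36 to 0.038 for Pdgfra, -0.11 to 0.0048 for Pdgfrb, -0.22 to 0.16 for Acta2, -0.24 to 0.18 for Tagln, -0.17 to 0.25 for Tcf21 and -0.20 to 0.59 for Postn. For endothelium they ran from -0.12 to 0.23 for Pecam1, -0.18 to 0.14 for Cdh5, -0.15 to 0.12 for Kdr, -0.057 to 0.25 for Tie1, -0.24 to 0.057 for Tek, -0.10 to 0.19 for Emcn, -0.0087 to 0.14 for Esam, -0.19 to 0.080 for Sox17, -0.11 to 0.080 for Flt1, -0.010 to 0.29 for Robo4, -0.089 to 0.017 for Plvap and -0.026 to 0.24 for Calcrl. For leukocytes they ran from -0.55 to 0.87 for Csf1r and -0.32 to 0.80 for Cx3cr1, and for mesothelium from -0.94 to 0.15 for Upk3b, -0.36 to 1.137 for Wt1 and -0.41 to 0.51 for Lrrn4. For single markers, 525 values kept their sign and their side of the threshold, and 2, both for Msln, passed it.

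No paired analysis was made, because the labels used here name no pairs of samples. The genotypes share replicate number 1, which is not said to mark a pair. With 3 libraries a group and 1 female in each, sex was fitted as a covariate and not within each sex. Leukocyte sums rest on 112 to 212 counts a library, the fewest of the 4 classes.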
